A study of Mus musculus with 124 samples.

Results

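T cells of mouse blood labelled CBM were compared with T cells labelled PBS, and the genes that moved in T cells further than in B cells and monocytes were set apart from the shift that all 3 cell types showed. The comparison held every T cell sample of these labels except 1 PBS sample, JS20, whose label is in doubt: 12 CBM and 5 PBS samples (22 libraries) of the 85 samples (124 libraries) of the series. The mice were of the outbred CD1 stock, and the cells were sorted by flow cytometry from blood of offspring at postnatal days 35 to 40. PBS is phosphate-buffered saline. Of the other groups, EtOH is the model of prenatal alcohol exposure, in which dams were given 25% ethanol at 4.0 g/kg on embryonic days 16 and 17. The labels also describe a model of maternal diabetes with 150 mg/kg of streptozotocin, but they do not say what CBM is, so the group is called by its label here. The 5 PBS samples were JS1 (male), JS4 (female), JS7 (female), JS12 (male) and JS15 (male), and the CBM samples were labelled 8 female and 4 male. B cells (13 CBM, 8 PBS) and monocytes (13 CBM, 7 PBS) served for the comparison across cell types, and 8 EtOH samples of T cells served for levels only. The labels do not say whether samples of a group come from separate animals, so p-values measure the spread between these samples.

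All CBM samples are of sequencing batch 2 and all PBS and EtOH samples of batch 1, so treatment and batch cannot be told apart within T cells. A shift common to the 3 cell types may therefore be that of the batch, and the comparison of T cells with the other cell types takes away what is common. It does not take away a batch effect that differs between cell types. The EtOH T cells give a further level from batch 1 beside each gene.

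T cells recognise antigen through the T cell receptor with its CD3 chains, and circulate through blood and lymph nodes mostly in a resting state. Cytokine receptors such as those for interleukin 4 and interferon gamma direct what an activated T cell becomes, and kinases and phosphatases beneath the receptor set its threshold. Immediate early genes, among them members of the AP-1, Egr and Klf families, are transcribed within minutes of a stimulus.

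The cells carried the markers of their label. The summed level of 15 T cell markers was 10269 to 12705 CPM (counts per 1000000 counts of a sample) in PBS and 7804 to 13598 CPM in CBM T cells, against medians of 396 CPM in PBS B cells and 541 CPM in PBS monocytes, and no T cell marker was at 0 in any T cell sample. Totals were 3.37 to 5.59 M counts (M, 1000000) in PBS and 3.21 to 8.28 M in CBM. The PBS sample JS1 stood apart: its B cell markers summed to 2455 CPM, where the median of the 5 PBS samples was 80.6 CPM and the 12 CBM samples lay between 29.5 and 77 CPM. In JS15 and in CBM9 the sex-linked genes went against the sex label, as they did in 3 of the 8 PBS B cell and 2 of the 7 PBS monocyte samples of the contrast. Cytosolic ribosomal protein genes took 1.71% ± 0.26 (SD, n = 5) of the counts in PBS and 3.20% ± 0.68 (SD, n = 12) in CBM (exact two-sided permutation test, adjusted p = 0.00873 over 18 measures). Genes at 1 CPM or more numbered 13980 ± 400.3 and 18730 ± 3232 (exact permutation test, adjusted p = 0.0239). Receptor genes of the olfactory and vomeronasal systems, not known to be active in blood, summed to 134 ± 107 CPM and 731 ± 579 CPM (exact permutation test, adjusted p = 0.076). In the 8 EtOH T cell samples, totals were 0.33 M (JS23) to 5.78 M (JS50) counts. The olfactory and vomeronasal receptor genes summed there to 51.1 CPM (JS38) to 7420 CPM (JS23). The part of these differences in the results was not tested.

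Across all genes, 6882 of 15411 tested passed an adjusted p under 0.05 between CBM and PBS T cells, which is 44.7% of the genes tested. Of these, 3716 (24.1%) were higher and 3166 (20.5%) were lower in CBM. The genes called higher mostly started from low levels. Their median PBS level was 1.25 CPM, against 65.1 CPM for the genes called lower and 16.5 CPM for all genes tested. The filter on low counts can be passed through the samples of 1 group. Genes near 1.25 CPM in PBS entered the test only through higher CBM samples, so the low start follows in part from the filter. The same comparison passed 5262 genes (36.2%) in B cells, 16.9% of those tested higher and 19.4% lower. In monocytes it passed 3507 genes (25.6%), 11.9% of those tested higher and 13.6% lower. The median log2 difference of all genes tested was 0.09 in T cells, 0.06 in B cells and 0.04 in monocytes. Of the 6882 T cell calls, 1907 (27.7%) were called in the same direction in all 3 cell types, 695 of them higher and 1212 lower. Another 2176 (31.6%) were called in the same direction in only 1 of the other 2 cell types, and 2156 (31.3%) were not called in either. A further 606 (8.81%) lay below the filter on low counts in both other cell types, and 37 (0.538%) were called in the opposite direction in at least 1. A missing call in another cell type is no evidence of a difference between cell types, so the difference itself was tested.

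Few genes passed the criterion for a move in T cells beyond the other cell types. The contrast set the T cell difference against the mean of the B cell and monocyte differences, and a gene had to pass it, to be called in T cells in the same direction, and to move further than in either other cell type. It was met by 87 of 12365 genes (0.704%), of which 40 (0.323%) were higher and 47 (0.38%) were lower in CBM T cells. The contrast alone passed 108 genes after adjustment, and 1412 at an unadjusted p under 0.05. In simulated data the contrast and the T cell call together passed 49% of genes changed 2-fold in T cells only. For genes changed 4-fold in T cells only it was 91.9%, and both sets were drawn from genes with more counts. The small number of calls is thus not a count of the genes that differ. The lower genes included chains of the interferon gamma and interleukin 4 receptors, while most of the higher genes were more abundant in monocytes than in T cells. Without JS1, JS15 and CBM9, 32 of the 47 lower genes and 15 of the 40 higher genes kept the call. Without the 7 samples whose sex-linked genes go against the label, 22 higher and 29 lower genes met the criterion. In every one of the 17 fits that left out 1 T cell sample, 17 lower and 6 higher genes kept it. The higher count depended on single samples, with 11 genes without JS7, 12 without JS12, 18 without JS4 or without CBM12, 23 without CBM8 and 70 without CBM2. The lower count was 31 without JS4 or without CBM12.

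**Figure D1:**
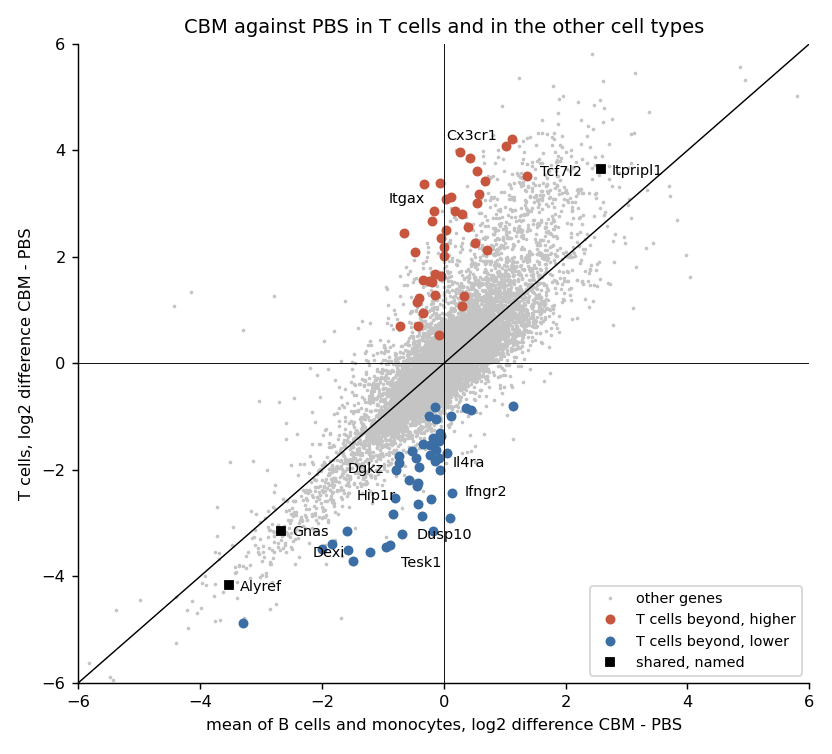
Log2 difference CBM minus PBS in T cells (vertical axis) against the mean of the differences in B cells and monocytes (horizontal axis), 1 point per gene that was tested in all 3 cell types; the diagonal marks equal differences, and a few points lie outside the axes. The 40 genes higher and 47 genes lower in T cells beyond the other cell types lie off the diagonal. The shared genes Gnas, Alyref and Itpripl1 had contrasts of -0.36, -0.57 and 0.96 that did not pass. Distance from the diagonal alone does not separate the sets, since Ifngr1 passed with a contrast of -0.91.

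The promoters of 4 lower genes are shown because they stand for 2 patterns that the levels below separate: Ifngr2, Ifngr1 and Hip1r were low in EtOH T cells as well, and Dexi was not. Each is the 250 bases before the start that RefSeq gives (build GRCm38.p6), 5′ to 3′ on the strand of the gene, and the capitals mark the GC box GGGCGG on either strand, overlapping matches included. They lie at chr16:91546809-91547058 (plus strand, Ifngr2), chr10:19591699-19591948 (plus strand, Ifngr1), chr5:123973378-123973627 (plus strand, Hip1r) and chr16:10543055-10543304 (minus strand, Dexi).
Ifngr2: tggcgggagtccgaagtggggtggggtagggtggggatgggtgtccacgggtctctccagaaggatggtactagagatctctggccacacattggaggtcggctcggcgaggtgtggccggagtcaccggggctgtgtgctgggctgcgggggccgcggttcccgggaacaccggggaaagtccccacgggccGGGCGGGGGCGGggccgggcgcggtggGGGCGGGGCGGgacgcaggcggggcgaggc
Ifngr1: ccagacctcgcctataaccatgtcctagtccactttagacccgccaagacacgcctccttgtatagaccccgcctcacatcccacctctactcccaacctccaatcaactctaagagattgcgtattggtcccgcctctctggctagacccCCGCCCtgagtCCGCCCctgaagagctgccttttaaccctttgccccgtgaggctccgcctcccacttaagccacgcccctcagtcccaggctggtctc
Hip1r: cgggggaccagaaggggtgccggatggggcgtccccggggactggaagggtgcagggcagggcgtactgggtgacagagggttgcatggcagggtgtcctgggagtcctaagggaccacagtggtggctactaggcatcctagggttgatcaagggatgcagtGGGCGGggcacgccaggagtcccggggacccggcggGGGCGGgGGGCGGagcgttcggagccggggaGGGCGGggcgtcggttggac
Dexi: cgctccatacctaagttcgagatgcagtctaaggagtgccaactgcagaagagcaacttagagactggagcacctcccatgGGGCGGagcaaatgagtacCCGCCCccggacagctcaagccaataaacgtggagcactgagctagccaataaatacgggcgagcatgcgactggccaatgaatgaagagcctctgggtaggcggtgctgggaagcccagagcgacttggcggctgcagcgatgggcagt
The windows hold 4 GC boxes for Ifngr2, 2 for Ifngr1, 4 for Hip1r and 2 for Dexi. The CCAAT box (CCAAT on either strand) occurs 1 time in the Ifngr2 window, 2 times in that of Ifngr1 and 3 times in that of Dexi, and not in that of Hip1r. Neither TGACGTCA, the cAMP response element, nor TGANTCA, the AP-1 site, is in any of the 4 windows. Among the 35 lower genes with a RefSeq window, 24 (68.6%) held a GC box, 13 (37.1%) a CCAAT box, 4 (11.4%) TGACGTCA and 1 (2.86%) TGANTCA. The shares among all 10407 genes tested in T cells with such a window were 56.6%, 36%, 2.67% and 4.24%, in the same order, and those among 33 higher genes were 39.4%, 18.2%, 3.03% and 9.09%.

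Receptors for interferon gamma and interleukin 4 fell in CBM T cells beyond the other cell types. Ifngr2, which encodes the signalling chain of the interferon gamma receptor (chr16:91547072-91565623), stood at 142 CPM in JS1, 456 in JS4, 418 in JS7, 192 in JS12 and 218 in JS15. The 12 CBM samples lay between 36.7 and 79.6 CPM, with a median of 64.9 CPM. The groups did not overlap: every CBM sample was below every PBS sample. The log2 difference was -2.43 ± 0.21 (SE; adjusted p = 3.02e-08) in T cells, -0.36 ± 0.15 in B cells, where it did not pass, and 0.65 ± 0.16 in monocytes, where Ifngr2 was higher in CBM. The contrast was -2.49 ± 0.23 (adjusted p = 1.53e-11). Ifngr2 thus went in opposite directions in T cells and monocytes of the same label.

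Ifngr1, the ligand-binding chain of that receptor, stood at 855 CPM in JS1, 2711 in JS4, 2250 in JS7, 2503 in JS12 and 1733 in JS15. In CBM T cells it ranged from 550 to 928 CPM with a median of 723 CPM, and 11 of the 12 samples were below every PBS sample. Its log2 difference was -1.75 ± 0.19 in T cells, -0.69 ± 0.15 in B cells and -0.79 ± 0.18 in monocytes, all past the threshold, with a contrast of -0.91 ± 0.23 (adjusted p = 0.0344). Il4ra, the chain that binds interleukin 4, stood at 790 CPM in JS1, 1249 in JS4, 1909 in JS7, 1190 in JS12 and 1152 in JS15. CBM T cells held 151 to 513 CPM, median 389 CPM, with no overlap. The T cell log2 difference was -2.01 ± 0.22 (adjusted p = 1.09e-06), while neither B cells (0.23 ± 0.22) nor monocytes (-0.35 ± 0.41) passed, and the contrast was -1.94 ± 0.40 (adjusted p = 0.00686). In EtOH T cells the medians were 68.3 CPM for Ifngr2, 1098 CPM for Ifngr1 and 317 CPM for Il4ra, the first and the last near or under the CBM median. Ifngr2 and Il4ra held the call in all 17 fits without 1 sample and Ifngr1 in 12. Ifngr1 did not pass against monocytes alone (adjusted p = 0.0872), and Il4ra lost the call with the 3 marker scores of T cell samples as terms. These 3 were the members of the cytokine receptor list that T cells moved beyond the other cell types. Of the 22 members tested in T cells, 4 rose and 5 fell, against 24.1% higher and 20.5% lower of all genes tested. Their median log2 difference was 0.13, so the list as a whole was not lowered. Ifnar2, a chain of the type I interferon receptor, rose by 0.73 ± 0.11 in T cells and by similar amounts in B cells (0.64) and monocytes (0.67).

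Dusp10 and Dgkz, both of which dampen signalling in lymphocytes, were also lower. Dusp10, a phosphatase that inactivates p38 and JNK kinases (chr1:184013302-184075636), stood at 687 CPM in JS1, 1465 in JS4, 1543 in JS7, 1287 in JS12 and 841 in JS15, against 43.9 to 261 CPM in CBM. The medians were 144 CPM in CBM and 369 CPM in EtOH T cells, and PBS and CBM did not overlap. Its log2 difference was -3.20 ± 0.30 in T cells, -0.24 ± 0.31 in B cells and -1.12 ± 0.22 in monocytes, and the contrast was -2.45 ± 0.37 (adjusted p = 2.96e-05). Dgkz, a diacylglycerol kinase that dampens T cell receptor signals (chr2:91932824-91975864), stood at 369 to 515 CPM in PBS and 90.9 to 153 CPM in CBM. It fell by 2.19 ± 0.14 in T cells and by 1.29 ± 0.12 in B cells, with 0.14 ± 0.15 in monocytes, and the contrast was -1.55 ± 0.17 (adjusted p = 4.12e-09). In EtOH T cells Dgkz had a median of 461 CPM, at the level of PBS.

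Hip1r, which encodes a clathrin and actin binding protein of endocytosis (chr5:123973628-124005558), stood at 493 CPM in JS1, 1302 in JS4, 1846 in JS7, 1002 in JS12 and 989 in JS15. CBM T cells held 161 to 287 CPM, and EtOH T cells had a median of 288 CPM. Its log2 difference was -2.63 ± 0.20 in T cells, -0.20 ± 0.15 in B cells and -0.64 ± 0.16 in monocytes (contrast -2.10 ± 0.23, adjusted p = 3.75e-09). Tiprl, an inhibitor of protein phosphatase 2A family enzymes, ranged from 139 to 498 CPM in PBS and from 105 to 135 CPM in CBM, a group with little spread, with a contrast of -1.25 ± 0.17. Dbf4, the activating subunit of the replication kinase Cdc7, ranged from 49.2 to 154 CPM in PBS and from 34 to 66 CPM in CBM, so the groups overlapped through JS1, with a contrast of -1.30 ± 0.24. Arl5a, a small GTPase of the Golgi, ranged from 85.6 to 220 CPM in PBS and from 10.3 to 30.4 CPM in CBM. Its contrast was -1.50 ± 0.28 on top of falls in B cells (1.76) and monocytes (1.92). JS1 was the lowest PBS sample for Ifngr2, Ifngr1, Il4ra, Dusp10, Hip1r, Tiprl, Dbf4 and Arl5a.

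Dexi, Tesk1 and Cd72 showed another pattern, with tight groups in which EtOH T cells stood at the PBS level. Dexi (chr16:10502531-10543054) stood at 37 to 47.7 CPM in PBS and 2.04 to 7.46 CPM in CBM, and its EtOH median was 43.7 CPM. It fell in T cells (3.54 ± 0.26), B cells (0.71 ± 0.12) and monocytes (1.71 ± 0.24), and the contrast was -2.30 ± 0.26 (adjusted p = 9.72e-09). Tesk1, a kinase of the cofilin pathway (chr4:43441939-43448064), stood at 51.2 to 71.5 CPM in PBS, 2.57 to 11.4 CPM in CBM and a median of 62.8 CPM in EtOH, with a contrast of -2.43 ± 0.35. Cd72, a B cell coreceptor (chr4:43446462-43454628), stood at 35.1 to 62.7 CPM in PBS, 6.17 to 21.1 CPM in CBM and a median of 42.2 CPM in EtOH, with a contrast of -1.80 ± 0.34. Tesk1 and Cd72 lie on opposite strands and their exons overlap: 32.1% of the exonic length of Tesk1 and 41.6% of that of Cd72 is shared with another gene. The use of strand in counting is not given in the sources used here, so their reads cannot be told apart and the 2 calls may be 1.

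**Figure D2:**
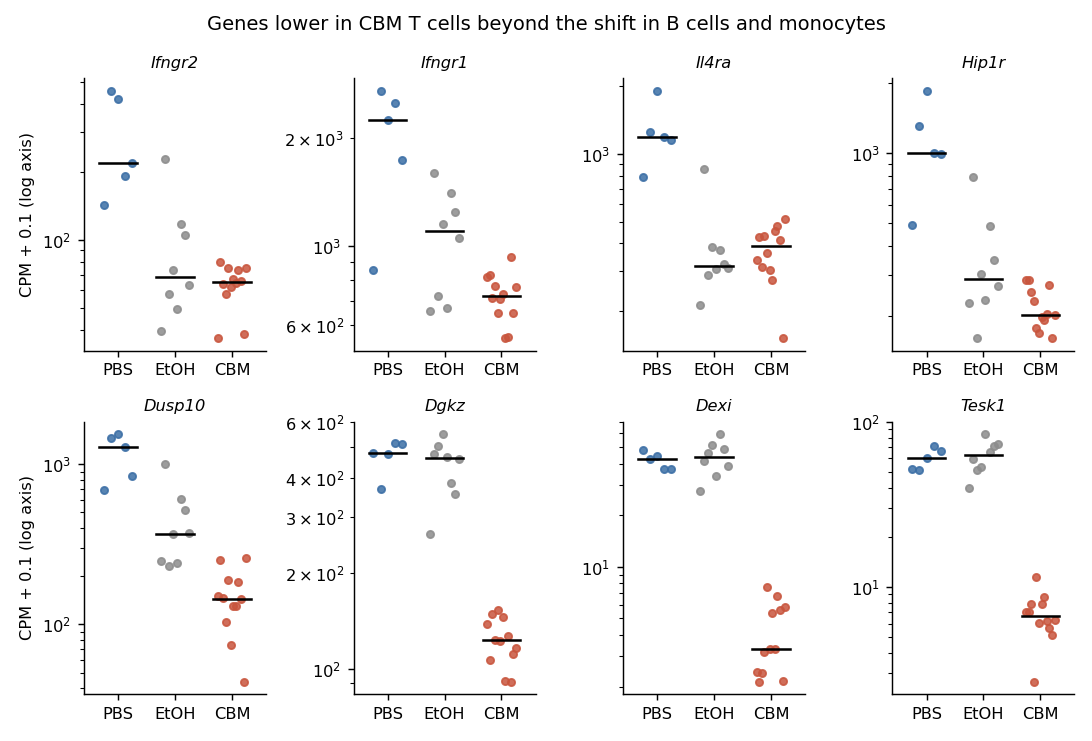
CPM + 0.1 on a log axis in each T cell sample for 8 genes lower in CBM T cells beyond the other cell types, with 1 point per sample (5 PBS, 8 EtOH, 12 CBM) and a line at the median. In Ifngr2, Ifngr1, Il4ra, Hip1r and Dusp10 the EtOH median (68.3, 1098, 317, 288 and 369 CPM) lies below the PBS median, while in Dgkz, Dexi and Tesk1 the EtOH median (461, 43.7 and 62.8 CPM) lies at the PBS level.

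The position of the EtOH median between the PBS median (0) and the CBM median (1), on a log2(CPM + 0.5) scale, was read for every called gene as a description. Among the 327 genes that were lower in all 3 cell types and at least 4-fold lower in T cells, EtOH lay nearer to PBS for 311 (95.1%), with a median position of 0.08. Among all 1212 shared lower genes it lay nearer to PBS for 1010 (83.3%). Among the 47 genes lower in T cells beyond the other cell types it lay nearer to PBS for 22 (46.8%) and nearer to CBM for 25, with a median position of 0.54. These 47 were not required to differ 4-fold, and the position says little where the PBS and CBM medians nearly meet. H2-Aa had medians of 26.2 CPM in PBS and 21.5 CPM in CBM, and a position of 2.93. For H2-Ab1 the CBM median (45.9 CPM) was above the PBS median (35 CPM). On the higher side, EtOH lay nearer to PBS for 67 of the 100 shared genes at least 4-fold higher (67%, median position 0.41), for 555 of all 695 shared genes (79.9%) and for 31 of the 40 genes beyond (77.5%). For the large shared falls, which were chosen for a wide gap between PBS and CBM, EtOH thus mostly lay with PBS. EtOH and PBS samples are of the same batch and CBM samples of the other, so batch and treatment cannot be told apart here. Exons overlapped another gene in 38.3% of the lower and 37.5% of the higher genes beyond, in 37.6% of the shared genes at least 4-fold lower, and in 39.6% of all genes tested. The median GC content of the longest transcript was 51.7%, 50.5%, 51.2% and 49.2% in the same order.

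**Figure D3:**
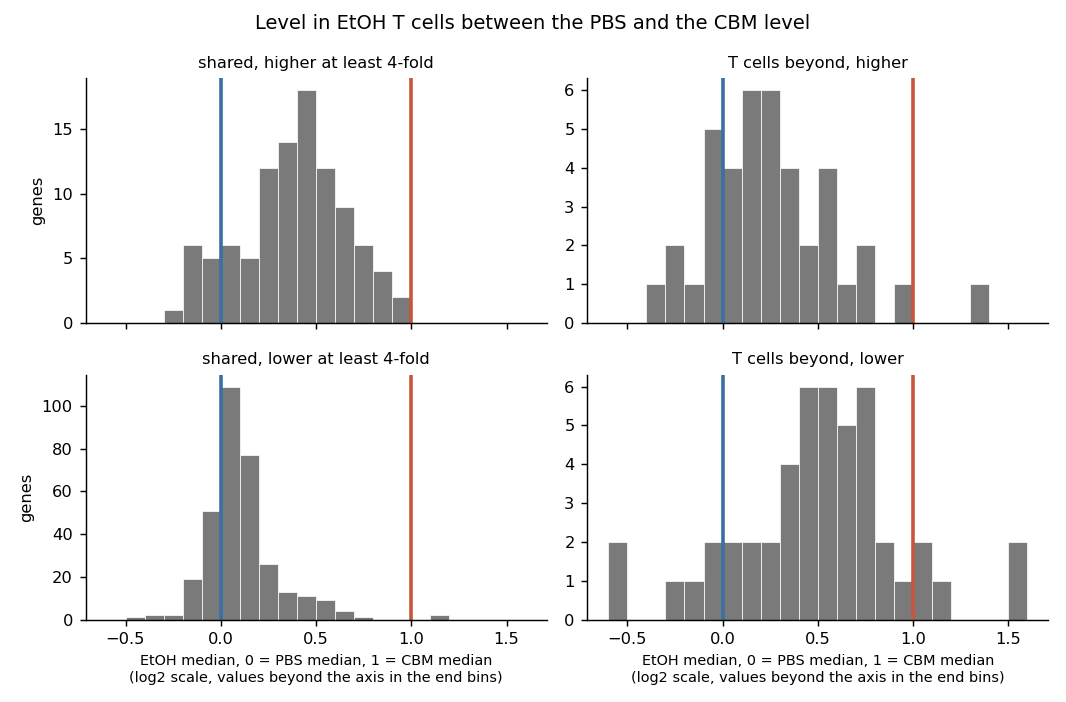
Number of genes (vertical axis, with its own scale in each panel) by the position of the EtOH median of T cells, where 0 is the PBS median and 1 the CBM median on a log2 scale. Shared genes at least 4-fold lower in CBM T cells gather near 0 (median 0.08), whereas genes lower in T cells beyond the other cell types spread around a median of 0.54. The latter were not required to differ 4-fold, and their position says little where the PBS and CBM medians nearly meet.

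Some of the lower genes were genes that B cells express. Of the 47 lower genes, 11 (23.4%) were at least 10-fold more abundant in PBS B cells than in PBS T cells, against 1.25% of all genes tested. They included Cd79a, the signalling chain of the B cell receptor, Fcmr, the receptor for IgM, and the class II genes H2-Aa and H2-Ab1. Cd79a stood at 624 CPM in JS1, with a PBS median of 21.8 CPM, and at 3.26 to 10.7 CPM in CBM, where 6 of the 9 B cell markers tested fell with a median of -2.40. Cd79a, Fcmr, Fcer2a, Bank1, H2-Aa and H2-Ab1 did not keep the call without JS1, JS15 and CBM9, and Cd72 kept it. Fcer2a, Bank1 and H2-Ab1 are named after their values were seen. In bulk samples fewer cells of a type and less RNA per cell cannot be told apart. Of 10 MHC class II genes, a list added after values had been seen, 4 fell and 1 rose in T cells (median -1.60). Among all genes tested, 20.5% fell and 24.1% rose in T cells. Lower as well, and not B cell genes, were Fosb, an AP-1 subunit (9.02 to 20.8 CPM in PBS, 0.229 to 4.63 CPM in CBM, contrast -2.81 ± 0.72), and Bbc3, the cell death protein PUMA (63.3 to 285 CPM against 17.3 to 79.2 CPM, contrast -1.69 ± 0.34). Bbc3 held the call in 17 and Fosb in 6 of the 17 fits without 1 sample, and Fosb also lost it without JS1, JS15 and CBM9 and with the 3 marker scores as terms.

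On the higher side, CBM T cells held more transcripts of genes that monocytes express. Of the 40 higher genes, 29 (72.5%) were at least 10-fold more abundant in PBS monocytes than in PBS T cells, against 3.1% of all genes tested. Cx3cr1, the receptor for fractalkine on patrolling monocytes and cytotoxic lymphocytes, stood at 2.32 to 14.8 CPM in PBS T cells. In CBM T cells it ranged from 0.942 to 684 CPM with a median of 45.5 CPM, so that CBM2 lay below and CBM10 and CBM11 within the PBS range, and CBM12 was the highest. Its log2 difference was 3.97 ± 1.18 in T cells, 0.42 ± 0.37 in B cells and 0.13 ± 0.23 in monocytes (contrast 3.66 ± 0.84, adjusted p = 0.0187). Itgax, the integrin CD11c, stood at 0.715 to 3.27 CPM in PBS and at 0.314 to 77.2 CPM in CBM (median 20.6 CPM), with a contrast of 3.37 ± 0.76. Krt80, a keratin (0 to 0.772 CPM in PBS, 1.05 to 21.2 CPM in CBM), averaged 109 CPM in PBS monocytes, and its contrast was 3.81 ± 0.78. Tcf7l2, a transcription factor of the Wnt pathway, was at 0.22 to 1.25 CPM in PBS and 4.46 to 43.6 CPM in CBM. It also rose in B cells (1.78 ± 0.31) and monocytes (0.97 ± 0.19), and the contrast was 2.22 ± 0.51.

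Monocyte markers moved with these genes. All 10 were seen in T cells, and their summed level was 302 to 719 CPM (median 625) in PBS and 480 to 2822 CPM (median 1225) in CBM T cells, against a median of 25854 CPM in PBS monocytes. Cebpa and Fcgr1 were at 0 in at least 1 CBM sample, and Fcgr1 in at least 1 PBS sample. Of the 8 monocyte markers tested in T cells, 4 rose and none fell (median 1.20), against 24.1% higher and 20.5% lower of all genes tested. Csf1r, the receptor for colony stimulating factor 1, rose by 2.42 ± 0.71, Clec4a3 by 3.17 ± 0.95 and Lyz2, lysozyme, by 1.61 ± 0.56, although Lyz2 turned to -0.16 (adjusted p = 0.619) with the 3 marker scores as terms. Lyz2 is itself a member of the monocyte score, so that fit cannot decide about it. Of 12 genes of nonclassical monocytes, a list added after values had been seen, 8 rose in T cells with a median of 1.99, while the medians were -0.02 in B cells and 0.12 in monocytes. The list holds 4 of the genes beyond the other cell types, Cx3cr1 and Itgax among them, so this difference follows in part from the choice. Markers of natural killer cells summed to 295 to 1264 CPM in PBS and 214 to 2432 CPM in CBM, and none of 9 passed (median 0.25). With the natural killer, B cell and monocyte scores of the T cell samples as terms, added after seeing the data, 6 of the 40 higher and 25 of the 47 lower genes kept the call. Those 6 were Hmga1, Myadm, Alcam, Trp53inp1, Zfp553 and a RIKEN clone gene, of which Zfp553 is named after its values were seen. Clec4a3, Cd79a and Fcmr lost the call and are themselves members of these scores, so the fit cannot decide about them.

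Hmga1, a chromatin architectural protein, was the higher gene with the lowest p of the contrast. It stood at 6.79 CPM in JS1, 5.1 in JS4, 6.75 in JS7, 6.38 in JS12 and 10.4 in JS15, and at 8.64 to 25.4 CPM (median 17) in CBM, with 11 of 12 samples above every PBS sample. Its log2 difference was 1.14 ± 0.26 in T cells, -0.43 ± 0.19 in B cells and -0.44 ± 0.20 in monocytes (contrast 1.59 ± 0.28, adjusted p = 0.000531), and the call held in all 17 fits that left out 1 sample. Myadm, a membrane protein, was at 14.1 to 36.5 CPM in PBS and 21.4 to 125 CPM in CBM, with a contrast of 1.86 ± 0.40. Tiam2, an exchange factor for Rac, was at 1.96 to 3.86 CPM in PBS and 7 to 14.3 CPM in CBM without overlap. It rose in B cells too (0.98 ± 0.34, adjusted p = 0.0272) and fell by 1.08 ± 0.22 in monocytes, and the contrast was 1.82 ± 0.39. Against B cells alone the T cell difference did not pass (0.73, adjusted p = 0.755), and without JS1, JS15 and CBM9 Tiam2 lost the call. Fam129b (contrast 1.88), Alcam, an adhesion molecule that binds CD6 (contrast 1.97), and Tg, thyroglobulin (contrast 3.33), complete the 10 named. A RIKEN clone gene with a lower p than 9 of them is counted and not named. Tg was at 0.392 to 1.19 CPM in PBS, 2.74 to 13.4 CPM in CBM and a median of 7.02 CPM in EtOH. The EtOH samples JS23, JS32, JS35 and JS41 held 27.4, 11.9, 11.6 and 13.3 CPM, and the others 0.346 to 2.49 CPM. In the named samples the olfactory and vomeronasal receptor genes summed to 1038 to 7420 CPM, and in the others to 51.1 to 127 CPM. A link between the 2 was not tested.

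**Figure D4:**
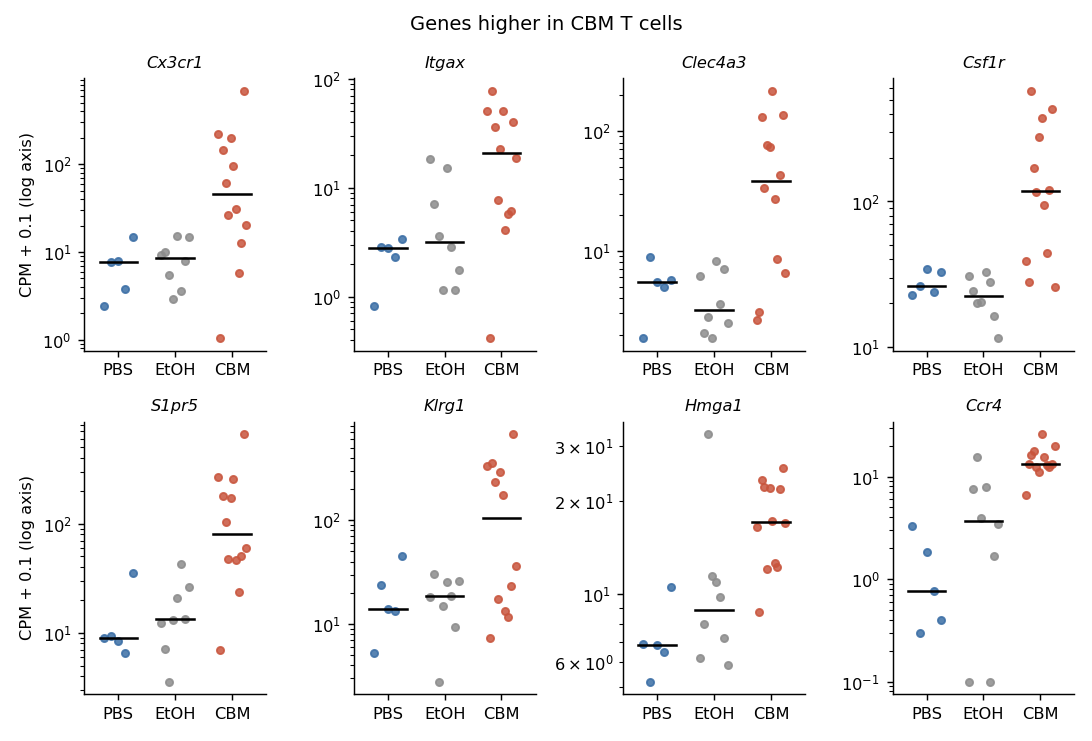
CPM + 0.1 on a log axis in each T cell sample for 8 genes higher in CBM T cells, with 1 point per sample (5 PBS, 8 EtOH, 12 CBM) and a line at the median. Cx3cr1, Itgax, Clec4a3, Csf1r, S1pr5 and Klrg1 spread widely among the CBM samples and reach down to the PBS range, whereas CBM Ccr4 (6.53 to 25.9 CPM) lies above every PBS sample.

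Some called genes passed the filter on low counts in T cells alone, so the contrast was not tested for them. Their low means in B cells and monocytes moved in the same direction for every gene named here, except Dmrta1 in B cells. Ccr4 averaged 0.80 CPM in PBS and 3.38 CPM in CBM B cells, and 0.69 and 1.75 CPM in monocytes. Eid2 averaged 2.34 and 0.35 CPM in B cells, and 2.27 and 0.62 CPM in monocytes. Ccr4, a chemokine receptor of helper and regulatory T cells, stood at 3.22 CPM in JS1, 0.196 in JS4, 1.74 in JS7, 0.66 in JS12 and 0.297 in JS15, and at 6.53 to 25.9 CPM in CBM (log2 difference 3.29 ± 0.47, adjusted p = 2.33e-05). Its EtOH median was 3.61 CPM. Tubb3 (2.24), F2rl3 (1.92), Npdc1 (3.10) and Stra6 (3.70, with 3 PBS samples at 0) rose as well, from PBS levels of at most 2.32 CPM. The filter can be passed through the samples of 1 group. At these PBS levels Ccr4, Tubb3, F2rl3, Npdc1 and Stra6 passed it through the CBM samples, so a rise was favoured by the choice. Eid2, a repressor of transcription, fell from 11.4 to 35.5 CPM in PBS to 0.238 to 3.02 CPM in CBM (-4.56 ± 0.41), and its EtOH median was 21.6 CPM. Fndc10 (-3.78), Dmrta1 (-3.09), Apol7e (-2.43) and Ramp3 (-2.19) fell too. Eid2 and Dmrta1 were low in CBM and passed the filter through the PBS samples, which favoured a fall.

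In the list of CD4, CD8 and regulatory lineage genes, 10 of 16 rose and 2 fell (median 0.61), against 24.1% higher and 20.5% lower of all genes tested, and none was beyond the other cell types. Zbtb7b, the CD4 lineage factor ThPOK, stood at 10 to 26.8 CPM in PBS and 34.8 to 71.3 CPM in CBM (1.50 ± 0.22), and it rose in B cells and monocytes too. Ikzf2, the factor Helios, rose by 1.13 ± 0.16, and Ctla4, an inhibitory receptor, fell by 1.79 ± 0.28 from 53.4 to 177 CPM to 16.3 to 57.8 CPM. Of 25 genes of the T cell receptor complex and its proximal signalling, 4 rose and 7 fell (median -0.15). Fyn, a kinase of that pathway, fell from 773 to 1015 CPM to 80.2 to 312 CPM (-2.73 ± 0.25), and it fell in B cells (-2.67) and monocytes (-2.89) too. Cd28 fell by 1.34 ± 0.24, and Cd5 and Lcp2 rose by 0.72 ± 0.15 and 0.80 ± 0.10. Of 15 T cell markers 1 rose and 4 fell (median -0.25).

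Several genes of the naive state fell in the other cell types as well. Of 20 genes of naive and memory state, 9 fell and 1 rose in T cells (median -0.47), 9 of 17 fell in B cells (median -0.71) and 9 of 19 fell in monocytes (median -1.31). Of all genes tested, 20.5% were lower in T cells, 19.4% in B cells and 13.6% in monocytes, and 24.1% were higher in T cells. The T cell markers themselves fell for 7 of 15 in monocytes (median -1.39), and for 5 of 15 in B cells, where 1 rose (median -0.57). Their summed level in monocytes was 279 to 2361 CPM in PBS and 185 to 1164 CPM in CBM. The part of T cell transcripts in the monocyte and B cell samples in these falls was not tested. Klf2, which keeps T cells in circulation, fell from 1714 to 2930 CPM to 48.5 to 664 CPM, by 3.35 ± 0.38 in T cells, 3.17 in B cells and 2.41 in monocytes. Satb1 (-1.89), Foxo1 (-2.06) and Tcf7 (-1.32) fell as well, each without a contrast past the threshold. Effector and cytotoxic genes counted 4 rises and 1 fall among 20 (median 0.80), and 2 of those named, Klrg1 (2.98 ± 1.08) and S1pr5 (3.50 ± 0.89), spread from the PBS range to 676 and 663 CPM. Checkpoint genes counted 3 rises among 11 (median 0.66), of which Havcr2, the receptor TIM-3, was beyond the other cell types (contrast 3.11). The rises in the effector and checkpoint lists lay near the share of all genes tested that rose. Havcr2 averaged 0.963 CPM in PBS T cells and 63.6 CPM in PBS monocytes. Its call held in 11 of the 17 fits without 1 sample, and was lost with the 3 scores as terms and without JS1, JS15 and CBM9. Gamma delta and innate-like genes counted 1 rise and 3 falls among 8 (median -0.59). Chemokine receptor and trafficking genes counted 4 rises and 3 falls among 21 (median 0.35), with Cxcr4 (-2.84), Cd69 (-2.14) and Gpr183 (-1.75) lower and S1pr4 (1.17) higher. Costimulatory genes counted 2 rises and 3 falls among 12 (median -0.24).

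Immediate early and glucocorticoid response genes were mostly lower in T cells, while the NF-kB, calcium and p53 lists had falls nearer the share of all genes. Of all genes tested, 20.5% were lower and 24.1% higher in T cells, and 19.4% were lower in B cells and 13.6% in monocytes. Of 21 immediate early genes, 12 fell and 1 rose in T cells (median -1.12), 9 of 22 fell and 4 rose in B cells (median -0.41), and 9 of 21 fell in monocytes (median -0.72). Jund fell from 547 to 1156 CPM to 7.61 to 142 CPM, by 4.30 ± 0.52 in T cells, 3.39 in B cells and 3.86 in monocytes, and Dusp2 fell by 4.52 ± 0.37 in T cells. Glucocorticoid response genes fell for 8 of 13 in T cells, 9 of 12 in B cells and 10 of 13 in monocytes, and none rose (medians -1.44, -1.24 and -1.52). Klf9, a direct target of the glucocorticoid receptor, fell from 14.5 to 49.8 CPM to 0.483 to 9.35 CPM, and its EtOH median was 8.85 CPM. Unfolded protein response genes counted 5 falls and 3 rises among 11 (median -0.50), heat shock genes 5 and 2 among 14 (median 0.01), and p53 targets 4 and 2 among 16 (median -0.06). Circadian clock genes counted 6 falls and 1 rise among 15 (median -0.16). NF-kB genes counted 4 falls and 2 rises among 16 (median 0.08), and JAK, STAT and SOCS genes 6 falls and 1 rise among 16 (median -0.37), with Jak2 lower by 2.85 ± 0.13. Calcium and NFAT genes counted 4 falls and 3 rises among 16 (median 0.04).

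Ribosomal protein genes rose in all 3 cell types. For the counts of this paragraph, 24.1% of all genes tested were higher and 20.5% lower in T cells. The shares higher were 16.9% in B cells and 11.9% in monocytes, and the shares lower were 19.4% and 13.6%. In T cells 21 of 32 rose and 1 fell (median 0.56), in B cells 30 rose (median 1.12) and in monocytes 30 rose (median 1.37). Rps2 rose from 46.5 to 63.1 CPM to 149 to 290 CPM in T cells, and its EtOH median was 26.2 CPM. RNA splicing genes counted 14 falls and 2 rises among 20 in T cells (median -0.44), and 12 and 11 falls in B cells and monocytes. Of the nuclear respiratory chain genes 9 of 21 fell and 1 rose (median -0.29), of the mitochondrially encoded genes 2 of 12 fell and 2 rose (median near 0), and of the glycolysis genes 1 of 16 fell and 3 rose (median 0.07). Insulin and mTOR genes counted 8 falls and 2 rises among 22 (median -0.25), with Akt1 (-3.65) and Irs2 (-3.77) lowest. Cholesterol synthesis genes counted 4 rises and 2 falls among 18 (median 0.26). DNA methylation and chromatin genes counted 6 falls and 3 rises among 18 (median 0.19). MHC class I genes counted 2 falls among 14 (median -0.08), and interferon-stimulated genes 3 rises and 1 fall among 20 (median 0.25). No cell cycle gene passed among 20 (median 1.31), and Cdk1, a mitotic kinase, stood at 1.98 to 32.4 CPM in PBS and 4.27 to 152 CPM in CBM. Red cell markers fell for 5 of 7 (median -1.56), dendritic cell markers rose for 3 of 6 (median 1.00), and no neutrophil marker among 10 (median 0.65) and no platelet marker among 8 (median -0.21) passed.

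**Figure D5:**
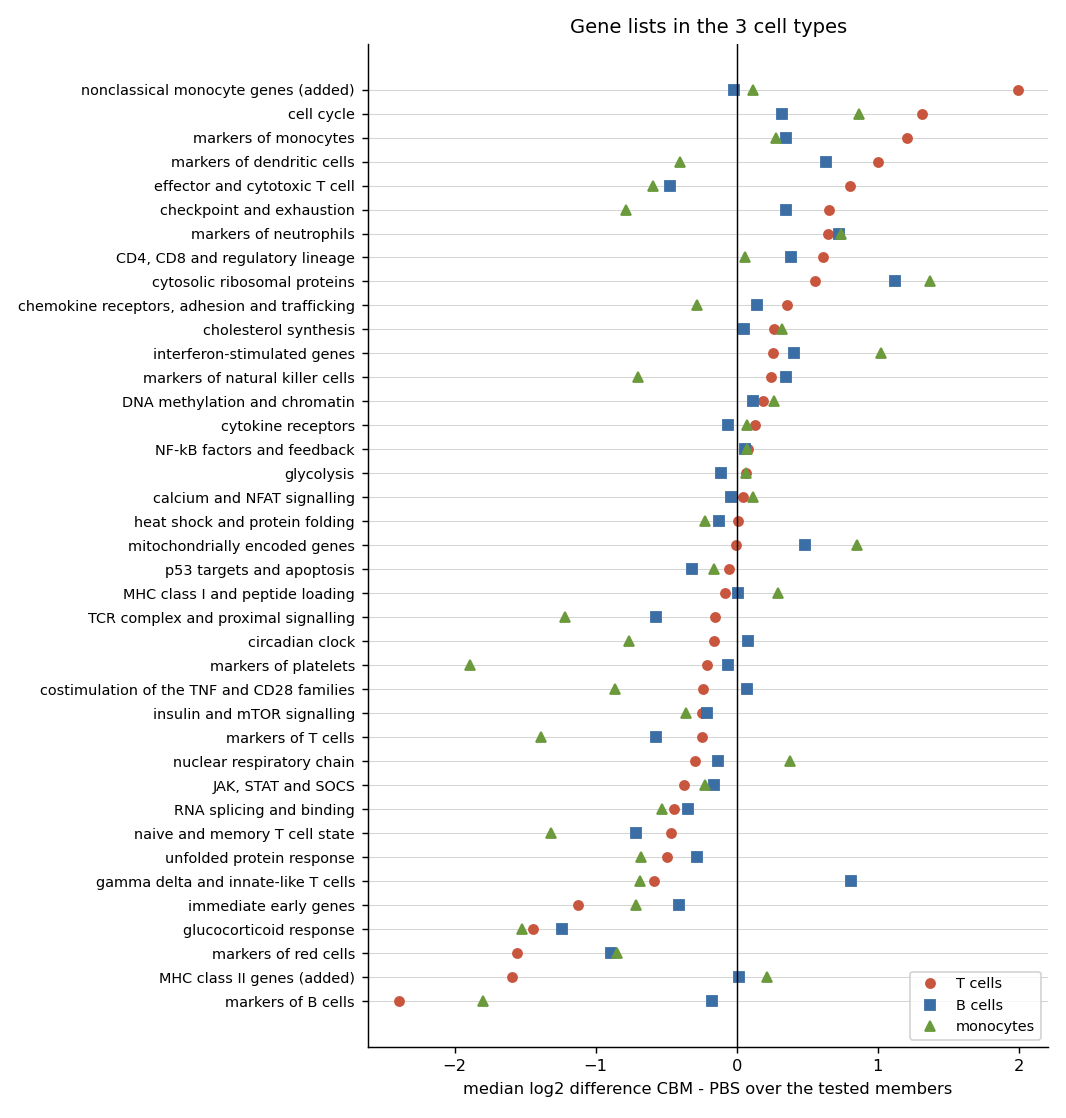
Median log2 difference CBM minus PBS over the tested members of each gene list (horizontal axis) in T cells, B cells and monocytes. The 3 cell types lie close together for glucocorticoid response (-1.44, -1.24 and -1.52) and RNA splicing genes. T cells lie apart for nonclassical monocyte genes (1.99), a list added after values had been seen. Of its 12 members, 4 are among the genes beyond the other cell types, so this distance follows in part from the choice.

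The named genes that all 3 cell types shared had PBS and CBM groups of T cells that did not overlap. They were picked by the lowest T cell p, so this separation follows from the choice. The share of all genes tested without overlap was not counted. Gnas, the stimulatory G protein alpha subunit (chr2:174284320-174346744), stood at 777 CPM in JS1, 906 in JS4, 855 in JS7, 740 in JS12 and 894 in JS15, and at 93.7 to 153 CPM in CBM T cells. It fell by 3.15 ± 0.11 in T cells, 2.98 in B cells and 2.37 in monocytes, and the EtOH T cells had a median of 712 CPM. Alyref, an mRNA export factor, fell by 4.17 ± 0.17, Otulin, a linear ubiquitin hydrolase, by 3.94, Ankrd13a by 3.78, Gnb1, a G protein beta subunit, by 3.58, Ythdf1, a reader of methylated RNA, by 3.46, Galnt1 by 3.32 and Cmip by 3.29. In each of these 8 genes every CBM sample was below every PBS sample, and the contrast did not pass. Itpripl1 rose by 3.65 ± 0.35 in T cells, from 1.16 to 7.69 CPM to 33.1 to 69.7 CPM, and in B cells (2.50) and monocytes (2.65). Tnfrsf14, the receptor HVEM, rose by 3.46 ± 0.35 from 4.24 to 7.7 CPM to 27 to 107 CPM, and its EtOH median was 52.8 CPM. The EtOH samples were split, with JS32, JS35 and JS50 at 5.43, 4.62 and 8.65 CPM and the others at 52.7 to 73.1 CPM. Pdp2 (2.33), Mllt6 (2.04), Dpysl2 (1.89), Abcg1, a cholesterol exporter (1.78), and Zc3h4 (1.72) rose too.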

How the data were processed

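Counts per gene were deposited by the authors as 1 table of raw counts. Libraries came from the SMART-Seq low input and Nextera XT kits, per the labels' protocols, and paired ends were aligned to GRCm38 with HISAT2 2.1.0 and counted with HTSeq 0.11.2, as the submitters' processing notes also list. The annotation they name is of a human build, yet 53360 of 53465 identifiers were mouse genes of GENCODE M21, which gave positions. 3 lines name no gene and stayed out. The 2 libraries of a PBS sample differed little beyond sampling noise (chi-square per gene 1.21 to 1.27) and were summed. Counting may split near-identical, overlapping or antisense genes, and intervals of counts cover counting error only.

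CBM was compared with PBS in each cell type with edgeR 4.0.16 (quasi-likelihood test with the sex label as a term, TMM, and filterByExpr keeping genes from a count of 10 and a total of 15) in R 4.3.3. SE is that of the log2 difference. The contrast of T cells with the mean of B cells and monocytes came from 1 fit of 6 groups. P-values were Benjamini-Hochberg adjusted over all genes tested, with a threshold of 0.05. The monocyte sample JS17 was left out because earlier results had its markers against its label, and the EtOH T cell sample JS29 was not used. Single measures were compared over all 6188 regroupings of 5 and 12 samples. The procedure was tested on simulated data.

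Members, tests and the 37 gene lists (597 members, 595 in the table) were chosen with earlier results of these data known, and 2 lists were added later. Genes are named by rank of p: 10 per direction beyond the other cell types, 8 shared, 5 past the filter on low counts in T cells alone and up to 4 per list. No predicted or RIKEN clone gene, pseudogene or receptor segment is named by that rule. The value of 1 marker is not reported here. Other settings used limma 3.58.1 with voom, DESeq2 1.42.0 or only its size factors, and changed filters, terms and samples. Tables used Python 3.11.15, pandas 2.3.3, numpy 2.4.6, scipy 1.17.1 and matplotlib 3.10.9.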

Additional observations from a re-analysis of the deposited data

Results flagged for a closer look

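Among 64 values checked within the 5 PBS samples of T cells, 8 had a lowest or highest sample far from the rest, and chance marks about 1 in 20. For JS1 these were Galnt1 at 256 CPM, a mitochondrial share of 0.929%, a B cell score of 7.46, a monocyte score of 3.24 and a red cell score of 3.91 (scores are means of log2(CPM + 1) over the markers). The others were Tiam2 at 3.86 CPM in JS7, Tcf7l2 at 0.22 CPM in JS12 and Dgkz at 369 CPM in JS4.

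The T cell difference lay apart from the mean of the B cell and monocyte differences, by the contrast of the joint fit, in each gene named for it. These genes were chosen because they passed this contrast with the lowest p, so a difference was fixed by the choice and is no separate result. On the log2 scale the contrast was 1.59 for Hmga1, 3.81 for Krt80, 1.82 for Tiam2, 1.86 for Myadm, 1.88 for Fam129b, 3.37 for Itgax, 2.22 for Tcf7l2, 3.66 for Cx3cr1, 1.97 for Alcam and 3.33 for Tg. It was -2.49 for Ifngr2, -2.1 for Hip1r, -1.55 for Dgkz, -2.3 for Dexi, -1.25 for Tiprl, -2.43 for Tesk1, -2.45 for Dusp10, -1.3 for Dbf4, -1.5 for Arl5a and -1.8 for Cd72.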

How the results depend on the processing

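The counts of T cell calls changed by more than 1.5 times only on the higher side and only with the filter on low counts, with 2297 at a minimum count of 30 and 6281 without a filter. Leaving out 1 T cell sample gave 2791 to 4145 higher and 2598 to 3354 lower calls. The genes beyond the other cell types depended more on the settings. For the higher genes (40) the count was 121 with DESeq2 (all 40 among them), 69 with limma voom (13 of the 40 among them), 20 with the first library of each PBS sample, 24 with the 3 marker scores of T cell samples as terms, 10 without a filter, 8 with JS20 and JS17 put back, 22 without samples whose sex genes go against the label, and 7 where T cells had to pass against B cells and against monocytes singly. For the lower genes (47) it was 119 with limma voom (35 of the 47 among them), 31 at a minimum count of 30, 30 with the scores as terms, 29 without samples against their sex label and 14 with both single contrasts. Leaving out 1 sample gave 11 to 70 higher and 31 to 58 lower genes. With the CBM number as a replicate block in limma voom the counts were 91 (16 of the 40 among them) and 157 (36 of the 47). The labels do not say that these numbers mark animals, the correlation within a number was 0.19 over 13 numbers, and not every sample correlated best with its own number. Without JS1, JS15 and CBM9, and with the scores as terms, were alternatives chosen after seeing the data. Signs turned for Lyz2, which had passed, and for 4 markers and a score that had not: Lyz2 was -0.16 with the 3 scores as terms, Klre1 -0.18 with limma voom, -0.28 with natural killer and B cell scores as terms and -0.30 with all 3, Klrb1c -0.0286 and Gp9 -0.11 with natural killer and B cell scores, and Gp9 -0.40 with all 3. Over the fits without 1 sample, Klre1 ranged from -0.21 to 0.82, Clec1b from -0.76 to 0.0487 and Gp9 from -0.0647 to 0.64. The difference in the platelet score was -0.12 with JS20 and -0.34 without JS1, JS15 and CBM9. Lyz2 is a member of the monocyte score, and Klre1 and Klrb1c of the natural killer score, so fits with these scores cannot decide about them. The cause of these changes was not tested. At depths of 3.21 to 8.28 M counts, genes of a few CPM rest on few counts. The EtOH samples reached down to 0.33 M counts in JS23.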
